A study of Homo sapiens with 2 samples.

Results

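The 4 human HOX gene clusters were examined for binding of ZMYND8, a multidomain reader of histone modifications that associates with corepressor complexes. The members were chosen by position only. They were all summits of the deposited lists that lay in 4 spans of hg19, HOXA on chromosome 7 (27125000 to 27255000, 130 kb), HOXB on chromosome 17 (46600000 to 46810000, 210 kb), HOXC on chromosome 12 (54325000 to 54455000, 130 kb) and HOXD on chromosome 2 (176940000 to 177060000, 120 kb). The spans held 0 of the 385 summits of the ZMYND8 knockout list and 15 of the 45924 summits of the parental list. The data came from mammospheres, free-floating spheres in which stem-like cells are enriched, of MDA-MB-231, an established triple-negative breast cancer line. An antibody against ZMYND8 was used for chromatin immunoprecipitation and sequencing (ChIP-seq) in 2 libraries, 1 from ZMYND8 knockout spheres and 1 from parental spheres, whose genotype is given as wildtype. How the knockout was made, and whether it is a single clone, is not given in the sources used here, and neither is the read depth. With 1 library per genotype there is no replicate error and no test of genotype, and the 95% intervals below cover counting error only.

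HOX genes encode homeodomain transcription factors that give cells their position along the body axis. Within each cluster they stand in the order of the body regions in which they act, and all are transcribed in the same direction. In cells that do not use them, the clusters are a textbook target of Polycomb repression, and parts of a cluster can be open while neighbouring parts stay silent. HOTAIR, a long noncoding RNA of the HOXC cluster, is known for its raised level in metastatic breast cancer. The RefSeq gene table placed 39 protein-coding HOX genes on the same 4 chromosomes as the spans, with 11 in HOXA, 10 in HOXB, 9 in HOXC and 9 in HOXD. None of its gene coordinates were set against the summits. Its gene order put HOXA13 at the high coordinate end of its cluster, HOXB1 at the low end, HOXC4 towards the high end, HOXD13 at the low end and HOXD1 at the high end. An hg19 annotation was not used here, so no summit is assigned to a HOX gene, exon or promoter, and the sequence under the summits is not shown.

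The letters below are examples of HOX start sites, since the summit counts are later set against the number of HOX genes. Each is the 250 bases before a gene's most upstream RefSeq start, written 5′ to 3′ with CpG dinucleotides in capitals. The assembly is GRCh38.p14, a different build from that of the summits. In a gene with several starts, the most upstream one need not be the start nearest its coding exons. HOXA4, HOXC4 and HOXD4 are paralogs from different clusters, and HOXB1 stands for HOXB. They lie at chr7:27130758-27131007 (minus strand), chr17:48531012-48531261 (minus strand), chr12:54016638-54016887 (plus strand) and chr2:176151300-176151549 (plus strand).
HOXA4: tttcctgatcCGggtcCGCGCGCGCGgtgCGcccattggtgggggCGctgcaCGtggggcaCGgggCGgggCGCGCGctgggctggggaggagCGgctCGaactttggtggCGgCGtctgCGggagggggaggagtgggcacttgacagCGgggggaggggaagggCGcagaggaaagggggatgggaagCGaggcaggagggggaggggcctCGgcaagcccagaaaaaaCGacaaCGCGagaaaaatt
HOXB1: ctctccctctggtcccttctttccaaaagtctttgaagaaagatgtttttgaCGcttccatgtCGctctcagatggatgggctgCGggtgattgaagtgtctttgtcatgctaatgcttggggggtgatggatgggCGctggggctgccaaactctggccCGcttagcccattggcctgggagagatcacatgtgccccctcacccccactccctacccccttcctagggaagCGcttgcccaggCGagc
HOXC4: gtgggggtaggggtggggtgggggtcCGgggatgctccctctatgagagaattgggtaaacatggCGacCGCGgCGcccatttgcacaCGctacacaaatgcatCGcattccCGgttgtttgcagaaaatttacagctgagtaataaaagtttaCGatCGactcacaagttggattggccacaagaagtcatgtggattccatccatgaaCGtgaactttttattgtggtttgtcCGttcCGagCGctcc
HOXD4: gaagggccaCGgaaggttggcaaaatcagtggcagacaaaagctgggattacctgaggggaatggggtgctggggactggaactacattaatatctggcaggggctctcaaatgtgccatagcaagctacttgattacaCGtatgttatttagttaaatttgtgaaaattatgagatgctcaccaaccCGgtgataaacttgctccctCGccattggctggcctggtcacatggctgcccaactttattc

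The windows differed widely in CpG content, with 26 CpGs for HOXA4, 7 for HOXB1, 14 for HOXC4 and 4 for HOXD4. Of the 19 distinct HOX windows that could be matched, 9 were from HOXA, 8 from HOXD and only 1 each from HOXB and HOXC, so summaries over them describe mainly HOXA and HOXD. Their CpG count ran from 4 to 40 with a median of 21. Over 15747 windows of protein-coding genes in the same table the median was 17. The median GC content was 59.2% in the HOX windows and 62.0% in all windows. TGATTNAT, a motif bound by HOX and PBX proteins together, was searched on both strands. Only this pattern was searched, so other forms of such a site were not counted. TGATTNAT was found in 2 of the 19 HOX windows (10.5%), 1 in HOXA and 1 in HOXD, and in 1.82% of all windows. These 2 matches are too few to show a difference between the shares, for which no interval is given. A match is a run of letters and no evidence of a bound site, and none of these windows could be set against a summit.

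The HOXA span held 0 knockout summits and 4 parental summits, none with a score above the median of the parental list. The score is the authors' −log10 p or q value for each summit, and it is used here only to rank summits within a list. The parental summits lay at 27128044, 27204776, 27239912 and 27253987 of chromosome 7, with scores of 2.93, 2.93, 2.93 and 3.79. The highest of them equalled the parental list's median of 3.79. A score of 2.93 was shared by 5472 summits of the list, and 78.1% of the list stood at or above it. The first summit lay 3.04 kb inside the low coordinate end of the span, and a stretch of 76.7 kb without a summit followed. The other HOXA summits lay 79.8, 115 and 129 kb from that end, towards the side of HOXA13, a factor of limb and urogenital development.

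HOXB held the most members, with 0 knockout summits and 7 parental summits. The parental summits lay at 46620583, 46641722 and 46662467 of chromosome 17 with scores of 4.71, 3.71 and 3.75, and at 46719141 with a score of 5.09. Between them a tight run of 3 summits spanned 883 bp from 46702408 to 46703291, with scores of 6.66, 6.59 and 6.70. These were the highest scores in the HOXB span, and 18.1% to 18.3% of the parental list stood at or above them. The run lay near the middle of the span, 102 to 103 kb from the low coordinate end and 107 to 108 kb from the high end. The low end is the side of HOXB1, a hindbrain patterning gene. Beyond the last summit the remaining 90.9 kb of the span had none.

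HOXC had 0 knockout summits and 2 parental summits. They lay at 54355255 and 54412016 of chromosome 12, 56.8 kb apart, with scores of 4.71 and 2.14. The second was among the weakest of the parental list, 93.1% of which stood at or above its score. No parental summit lay between 54211051 and the first of them, a stretch of 144 kb. The stretch from the second to the next summit above the span, at 54611921, was 200 kb.

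HOXD also had 0 knockout summits and 2 parental summits, but these were the only members of a long stretch of chromosome 2. They lay at 176945634 and 177053667 with scores of 5.68 and 8.87, and 8.87 was the highest score of any HOX member. They stood close to either end of the span, 5.63 kb from the low end, the side of HOXD13, and 6.33 kb from the high end, the side of HOXD1. HOXD13 is a digit patterning gene. The 108 kb between them held no summit, and without 10 kb at each end the span held 0 parental summits. The nearest parental summits outside the span were 927 kb below the first and 449 kb above the second. The 2 members were thus the only summits within 1484 kb, between 176018451 and 177502630. The 45900 gaps between neighbouring parental summits of a chromosome had a median of 5.73 kb. Of them, 1.08% were at least as long as the lower of the HOXD gaps and 2.70% as the upper. Each gap counts once in these shares, although long gaps cover more sequence. A span fixed by position is likelier to lie by a long gap, so the shares do not give the rarity of such surroundings.

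**Figure D1:**
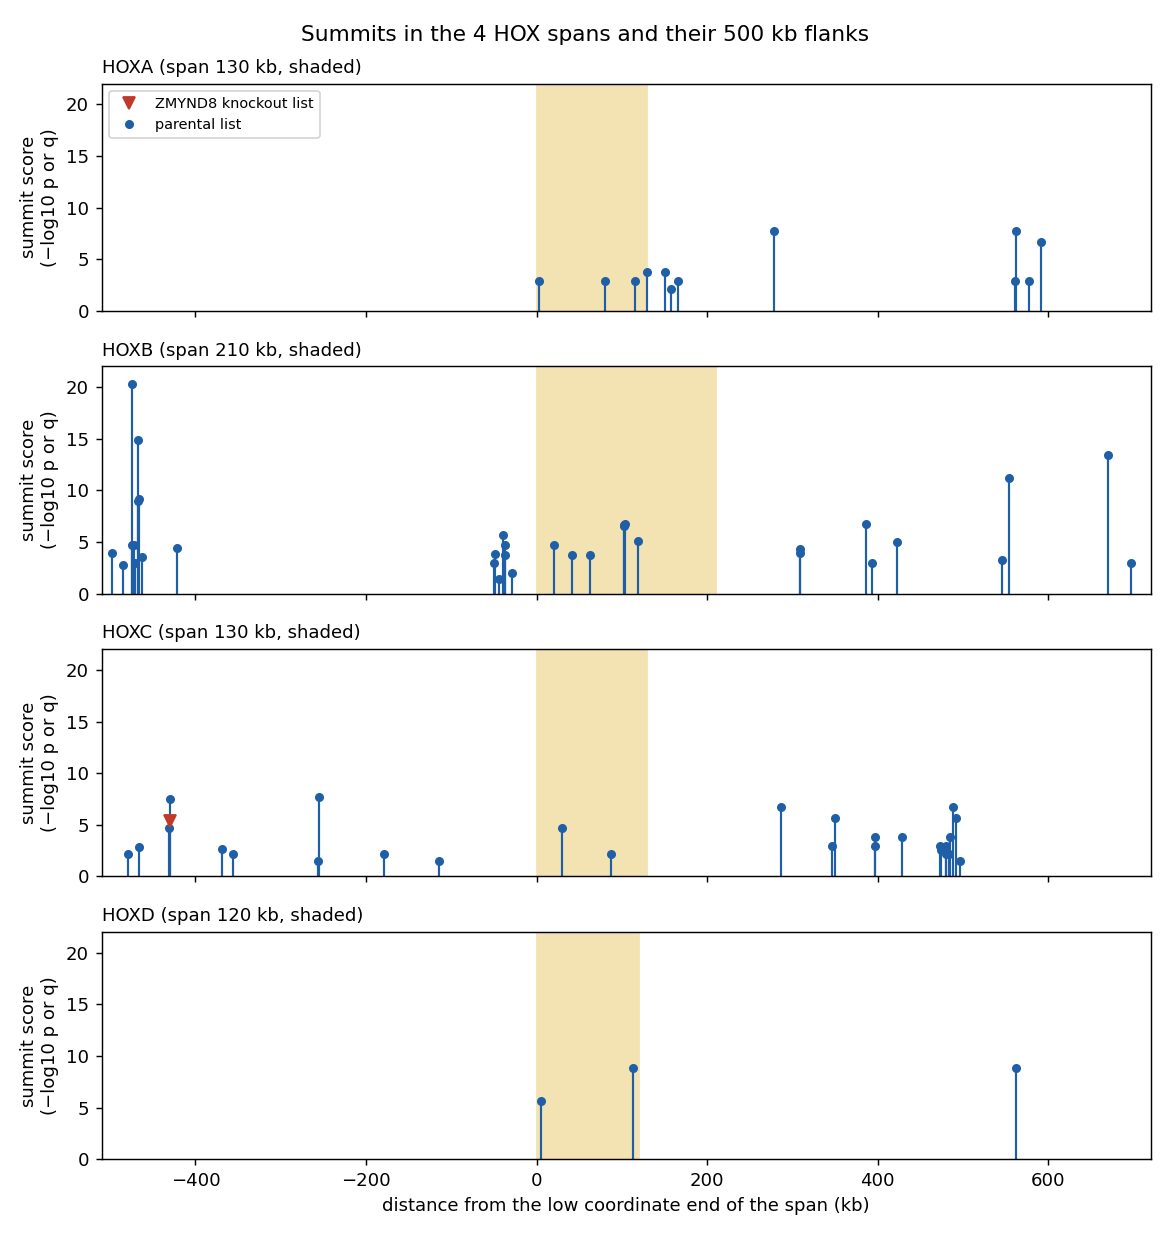
Summits of the ZMYND8 knockout list (red triangles) and the parental list (blue points) in each HOX span (shaded) and 500 kb to either side, by distance in kb from the low coordinate end of the span (x axis) and the authors' score (y axis, −log10 p or q). The spans hold no knockout summit; HOXD has 2 parental summits at its ends, with 1 more in the flanks.

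The first question was whether the clusters carried more summits than their surroundings. HOXA had 30.8 parental summits per Mb (exact Poisson interval 8.38 to 78.8) and its 500 kb flanks together had 8, a ratio of 3.85 with an exact conditional interval of 0.848 to 14.4. All 8 HOXA flank summits lay on the high coordinate side, where EVX1, a homeobox gene related to the HOX family, is the next protein-coding gene in the RefSeq order. On the other side, towards the adaptor gene SKAP2, there was no summit for 535 kb. The highest HOXA flank summits, at 27403664 and 27687470, had a score of 7.77. Against the high coordinate flank alone the HOXA ratio was 1.92 (0.424 to 7.18).

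HOXB had 33.3 summits per Mb (13.4 to 68.7) and its flanks had 27.0, a ratio of 1.23 (0.454 to 2.91). The flank held 18 summits on the low side, towards SKAP1, and 9 on the high side. HOXC had 15.4 per Mb (1.86 to 55.6) and its flanks had 25, a ratio of 0.615 (0.0706 to 2.47), with 10 flank summits on the low side and 15 on the high side. The highest of these were at 54069603 (score 7.71) on the low side and, with the same score of 6.70, at 54611921 and 54812890 on the high side. With flanks of 250 kb, which held 5 summits, the HOXC ratio was 1.54 (0.147 to 9.40). HOXD had 16.7 per Mb (2.02 to 60.2), from 2 summits, and its flanks had 1, from a single summit at 177502630 with a score of 8.87. No ratio is given for HOXD because both counts are at or under 3. The interval of each ratio given contained 1, so HOXA, HOXB and HOXC were not shown to be richer or poorer in summits than their flanks. For HOXD the counts were too small for this comparison.

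Over all 4 clusters the spans held 15 parental summits in 590 kb, or 25.4 per Mb, and the flanks held 61 in 4 Mb, or 15.2 per Mb. The ratio was 1.67 (0.880 to 2.97), and it was 1.68 (0.941 to 2.77) against the rest of chromosomes 1 to 22 and X, which had 15.1 per Mb. Without HOXC, whose own ratio was the lowest given, the ratio to the flanks was 2.36 (1.15 to 4.55). That interval no longer contained 1. The ratio was 1.35 without HOXA, 1.86 without HOXB and 1.38 without HOXD, each with an interval that contained 1. With summits within 500 bp merged, the ratio over all 4 clusters was 1.49 (0.752 to 2.75). Leaving out clusters and this merging were chosen after the data were seen, so the ratio without HOXC is not read as enrichment. Against the rest of its own chromosome the ratio was 2.23 (0.606 to 5.71) for HOXA, 0.941 (0.378 to 1.94) for HOXB, 1.07 (0.130 to 3.88) for HOXC and 1.41 (0.171 to 5.11) for HOXD.

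**Figure D2:**
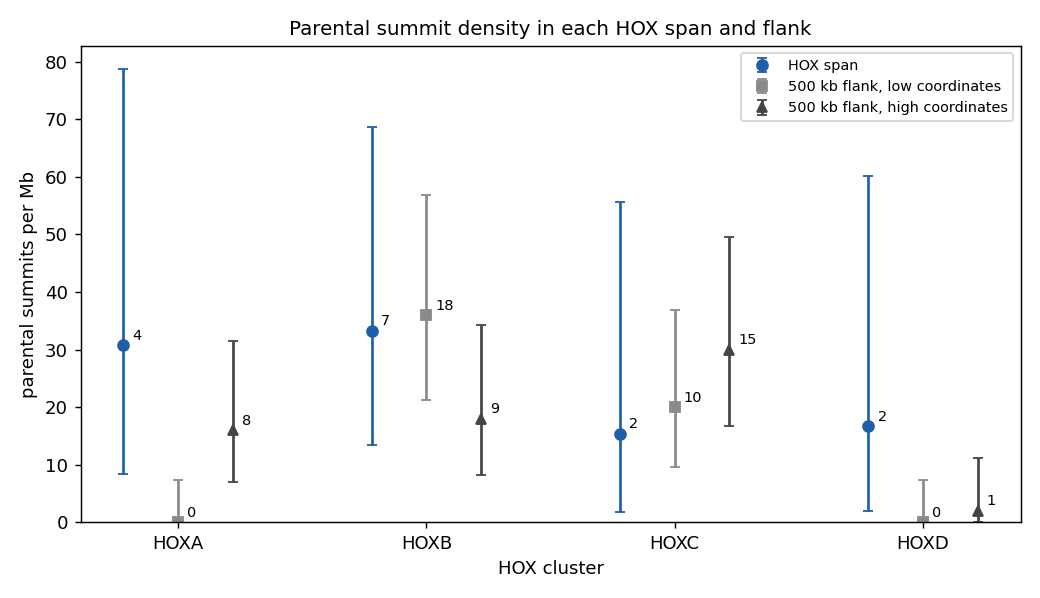
Parental summits per Mb (y axis) in each HOX span (blue circles), its low coordinate 500 kb flank (grey squares) and its high coordinate flank (dark triangles), with exact 95% Poisson intervals as bars and the count beside each point. The low coordinate flanks of HOXA and HOXD hold 0 summits, and the span intervals are wide, as for HOXA (8.38 to 78.8 per Mb).

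The clusters were also set against each other, which gives 6 pairs. HOXB over HOXA was 1.08 (0.275 to 5.05), HOXB over HOXC was 2.17 (0.413 to 21.4) and HOXB over HOXD was 2 (0.381 to 19.7). HOXA over HOXC was 2 (0.287 to 22.1) and HOXA over HOXD was 1.85 (0.265 to 20.4). For HOXD and HOXC, with 2 summits each, no ratio is given. Each of the 5 intervals contained 1, so the counts did not separate any of those 5 pairs. They would allow large differences as well as none.

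Windows of the same length across chromosomes 1 to 22 and X show how common such counts were. At least as many parental summits as in HOXA stood in 16.3% of 23344 windows of 130 kb, and at least as many as in HOXB in 14.4% of 14447 windows of 210 kb. For HOXC the share was 29.4% of the windows of 130 kb, and for HOXD it was 28.0% of 25290 windows of 120 kb. Most windows of 120 or 130 kb were empty, with 56.2% of those of 130 kb holding none. Cut into pieces of 10 kb, the spans held a summit in 13 of 59 pieces (22%, exact binomial interval 12.3 to 34.7), and 8.51% of all 10 kb pieces of these chromosomes did. HOXA had 4 of its 13 pieces occupied, HOXB 5 of 21, HOXC 2 of 13 and HOXD 2 of 12. These are descriptions of a single library, in which neighbouring pieces are not independent. The windows and pieces covered whole chromosome lengths, with no allowance for unassembled sequence or gene density, so the shares are not read as enrichment.

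**Figure D3:**
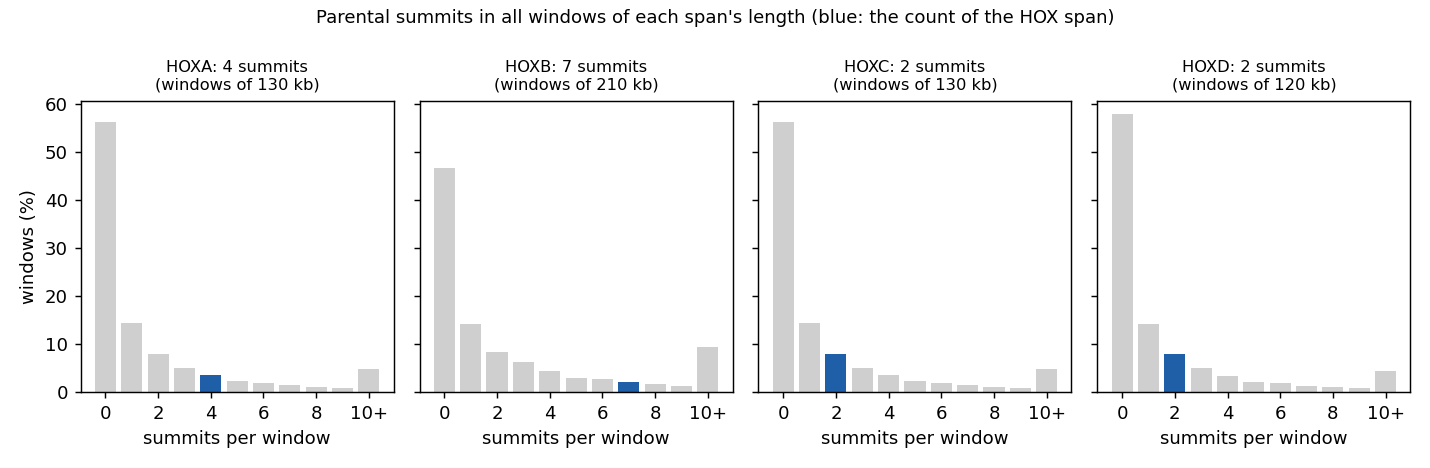
Percent of windows (y axis) by the number of parental summits they hold (x axis, with 10 or more in the last bar), for windows as long as each HOX span. The bar of the span's own count is blue: 4 in HOXA, 7 in HOXB, 2 in HOXC and 2 in HOXD, all above the commonest count of 0.

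Summits were also counted per gene. There were 0.385 parental summits for each of the 39 HOX genes (Poisson interval 0.215 to 0.634), and 2.30 for each of the 19974 protein-coding genes of chromosomes 1 to 22 and X. The value was 0.364 for HOXA, 0.700 for HOXB, 0.222 for HOXC and 0.222 for HOXD. The matching values of the whole chromosomes were 2.35 on chromosome 7, 2.46 on 17, 1.88 on 12 and 2.29 on 2. The lower values per HOX gene go with less sequence per gene, 15.1 kb in the spans and 152 kb over these chromosomes. At the density of the rest of these chromosomes, the spans would hold 0.229 summits per HOX gene, and 0.385 were counted. This restates the pooled density comparison per gene and is no separate evidence. It does not settle whether a single cluster is short of summits.

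The members were of ordinary score. The median was 4.71 over the 15 HOX summits, 3.79 over the 61 flank summits and 3.79 over the parental list. The highest scoring 25% of the parental list, with ties those of 5.68 or more (26.1% of the list), took in 5 of the 15 members (33.3%, exact binomial interval 11.8 to 61.6). These were the run of 3 in HOXB and both HOXD summits, and HOXA and HOXC had none. With summits within 500 bp merged, the share was 3 of 13 (23.1%, 5.04 to 53.8). The share of the list after merging is not given here, so the 23.1% is not set against it. A score of 10 or more was reached by 0 of 15 members, which allows a share of up to 20%, by 4 of 61 flank summits (6.56%) and by 6.27% of the parental list. All 4 of those flank summits were beside HOXB, at 46125106 (score 20.3), 46133029 (14.9), 47154328 (11.2) and 47269685 (13.4). Of the 15 members, 9 had a score among the 10 commonest values of the list, so their ranks were heavily tied.

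**Figure D4:**
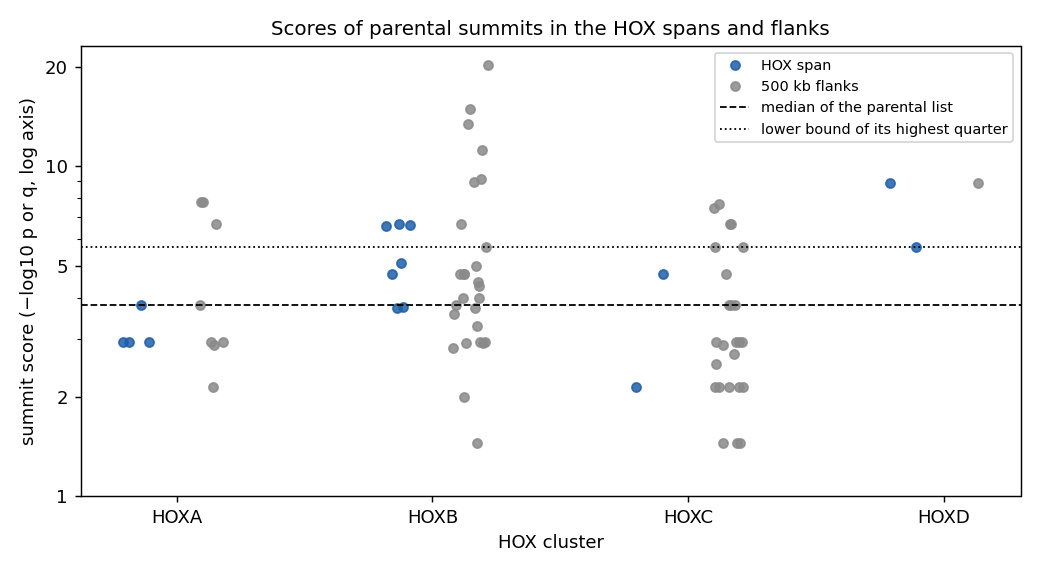
Score (y axis, −log10 p or q on a log axis) of each parental summit in the HOX spans (blue) and their 500 kb flanks (grey), with the median (dashed, 3.79) and the lower bound of the highest 25% (dotted, 5.68) of the parental list. The HOXA summits lie at or below the median, both HOXD summits at or above the dotted line, and scores over 10 are in the HOXB flanks.

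The second question was whether any HOX site was also in the knockout list. No knockout summit lay in the spans, which allows up to 0.779% of that list and up to 5.08 summits per Mb there. The knockout list averaged 0.127 summits per Mb, a density at which 590 kb would hold 0.0748 summits, so a count of 0 could not be told from its average. A knockout summit lay within 200 bp of 0 of the 15 members, which allows a share of up to 20%, and of 0.636% of the parental list. The nearest knockout summit was 883 kb from the HOXA span, 2434 kb from HOXB, 430 kb from HOXC and 43493 kb from HOXD. The HOXC one was the only knockout summit in the 4 Mb of flanks. It lay at 53895396 of chromosome 12 and scored 5.37. The parental summit at 53895424, 28 bp away, scored 7.50. Each list was scored on its own and read depth is unknown, so neither the counts nor the scores are read as a change in binding.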

How the data were processed

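ZMYND8 ChIP-seq of 1 ZMYND8 knockout and 1 parental library was analysed, grouped by the genotype in the labels. The authors deposited 1 list of MACS2 summits per library, each with a position and a −log10 p or q value as score, without saying which. Per the submitters' processing notes, the tools were MACS2 2.0.10, Bowtie2 2.2.3, FastQC 0.11.2 and Picard 1.127, and the build was hg19. Settings, control and threshold were not stated. A shallower library can give a shorter list even without a difference in binding. Read depth is unknown here, so its part in the list lengths was not tested.

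Positions are 1-based hg19. Flanks were 500 kb on either side. Counts carry exact Poisson, shares exact Clopper-Pearson and ratios exact conditional binomial intervals, all at 95%. What a count of 0 allows is an approximate bound, 3 divided by the number of summits or Mb. The exact upper limits were slightly higher, 21.8% for the 15 members and 0.954% for the knockout list. Summits were shared within 200 bp. The text names every summit of the spans, every knockout summit of the flanks, and the highest flank summits, and its other named flank summits (those of 10 or more, and span neighbours) were chosen after their values were seen. Long gaps around the spans and summits per gene were also chosen then. Members and lists were chosen with earlier results of these data known. Chromosome lengths came from GenomeInfoDb 1.38.1, and windows did not overlap. RefSeq (GRCh38.p14) gave gene counts, gene order and promoter letters. The planned assignment of summits to genes was left out, as no hg19 annotation was used. Counting was tested on simulated lists. Software was Python 3.11.15 with scipy 1.17.1, numpy 2.4.6, matplotlib 3.10.9 and pandas 2.3.3. Alternatives covered flank widths and sides, score minimums, merging, trimmed spans and windows.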

Additional observations from a re-analysis of the deposited data

How the results depend on the processing

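No paired analysis was possible because each genotype has 1 library. An alternative ratio or share held if the 95% interval of the reported value contained it, and a count if it was within 1.5 times. Of 47 alternatives 41 held, although intervals this wide are easily kept to. With a score of at least 5 the spans held 6 summits, merging within 500 bp left 13, and spans without 10 kb at each end held 11. No member reached a score of 10 (share 0%). Among windows with at least 1 summit, those with at least as many summits as the span made up 37.2% for HOXA, 27.0% for HOXB, 67.2% for HOXC and 66.5% for HOXD. These moves follow from the settings. Ratios to the flanks ran from 1.92 to 3.85 for HOXA, from 0.882 to 2.38 for HOXB and from 0.513 to 1.54 for HOXC. These ranges leave out settings with a count of 0, which give no ratio. With a score of at least 5, HOXA had 0 summits in its span and 3 in its flanks, and HOXC had 0 and 6. The counts were the same for the highest scoring 25% of the list. Against the low coordinate flank alone, HOXA had 4 summits in its span and 0 in that flank. For HOXB 3 of 9 alternatives were below 1: 0.882 with merging, 0.926 against the low coordinate flank and 0.941 against the rest of the chromosome. For HOXC 2 of 7 were above 1, 1.54 with 250 kb flanks and 1.07 against the chromosome. HOXB over HOXA was 0.774 with merging. The comparison with whole chromosomes, leaving out a cluster, and merging for the pooled ratio and the score share were chosen after seeing the data. In 20 settings a count of 0, or counts of 3 or fewer on both sides, left no ratio. Among them were the HOXA and HOXC settings named above and all HOXD settings that use flanks. Unknown read depth and 15 members limit every comparison.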

Other observations

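The regions around the clusters hold related genes, a trace of the ancient duplications that made them. In the RefSeq order the 4 protein-coding genes before HOXA include CBX3 and HNRNPA2B1, those before HOXB include CBX1 and NFE2L1, those after HOXC include CBX5, HNRNPA1 and NFE2, and those after HOXD include HNRNPA3 and NFE2L2. CBX genes encode heterochromatin proteins, HNRNPA genes RNA-binding proteins, and NFE2 genes basic leucine zipper factors. Whether these genes lie within the 500 kb flanks was not tested. The flank on that side held 0 parental summits for HOXA, 18 for HOXB, 15 for HOXC and 1 for HOXD. The 18 summits on the HOXB side included a group of 8 between 46125106 and 46136857 of chromosome 17 with scores from 2.93 to 20.3.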
